A study of Rattus norvegicus with 132 samples.

Results

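The comparison described here set irradiated rats that were also given water by mouth, the oral vehicle, against rats that were irradiated and given nothing more. It was read in the colon epithelium, on day 4 and on day 7. The 24 libraries were taken by their titles from the 132 libraries of the series. They form 4 groups of 6: oral vehicle day 4 (O_VC_D4_C), irradiation alone day 4 (NT_D4_C), oral vehicle day 7 (O_VC_D7_C) and irradiation alone day 7 (NT_D7_C). No measured value was used to choose them. The animals were Sprague Dawley rats, and the labels give no genotype, sex or age. All 4 groups had been irradiated over the abdomen in 5 fractions, each of 4 Gy, between days 0 and 4. The oral vehicle was the carrier of the compound Kushen powder arm, a herbal preparation, which is not the subject here. A further 6 colon libraries came from rats that were neither irradiated nor treated (NI_C) and served as a reference. Total RNA of epithelial tissue was sequenced in bulk. The labels call the libraries biological replicates and do not say how tissue was handled for each animal. In such samples fewer cells of a type and less RNA per cell cannot be told apart.

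The colon epithelium renews itself from stem cells at the base of the crypts, whose dividing daughters become absorptive colonocytes, mucus-secreting goblet cells, enteroendocrine cells and tuft cells. Ionising radiation damages the DNA of the dividing cells, switches on targets of the p53 tumour suppressor, and is followed by a regenerative programme and inflammation. Dosing by mouth involves handling and fluid, so a vehicle arm shows how far the readout moves without the drug. Genes of the stress hormone response, the circadian clock and fasting metabolism belong to that question, beside the radiation response itself.

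Each of the 24 libraries held between 17196039 and 19463458 counts over 21837 genes, and 13306 genes passed the filter on low counts. The library names carry 2 prefixes, called library series 1 and 2 here; what they stand for is not stated. Every group held 3 libraries of each series. Epithelial markers were abundant in all 5 groups, with group medians of 14590 to 20100 for their summed counts-per-million (CPM) values. Colon markers (Slc26a3, Car1, Aqp8 and Cdx2) had a median of 20660 CPM in the non-irradiated colon, against 1831 to 7496 CPM in the irradiated groups. Exocrine pancreas markers summed to at most 2.2 CPM. In a multidimensional scaling of the 30 colon libraries the non-irradiated ones lay apart from all irradiated ones. Replicates 1 and 2 of irradiation alone on day 7 lay away from replicates 3 to 6 of the same group. On the second dimension those 4 sat between 1.69 and 1.92, while replicates 1 and 2 sat at -0.34 and -1.35. These 2 libraries touch several day 7 results below, and values without them are given beside many of the gene groups described. On day 4, irradiation-alone replicate 6 and vehicle replicate 5 also lay apart, at -1.69 and -1.92 on the first dimension. The other libraries lay between -0.59 and 1.16 with irradiation alone and between -0.62 and 1.29 with the vehicle.

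**Figure D1:**
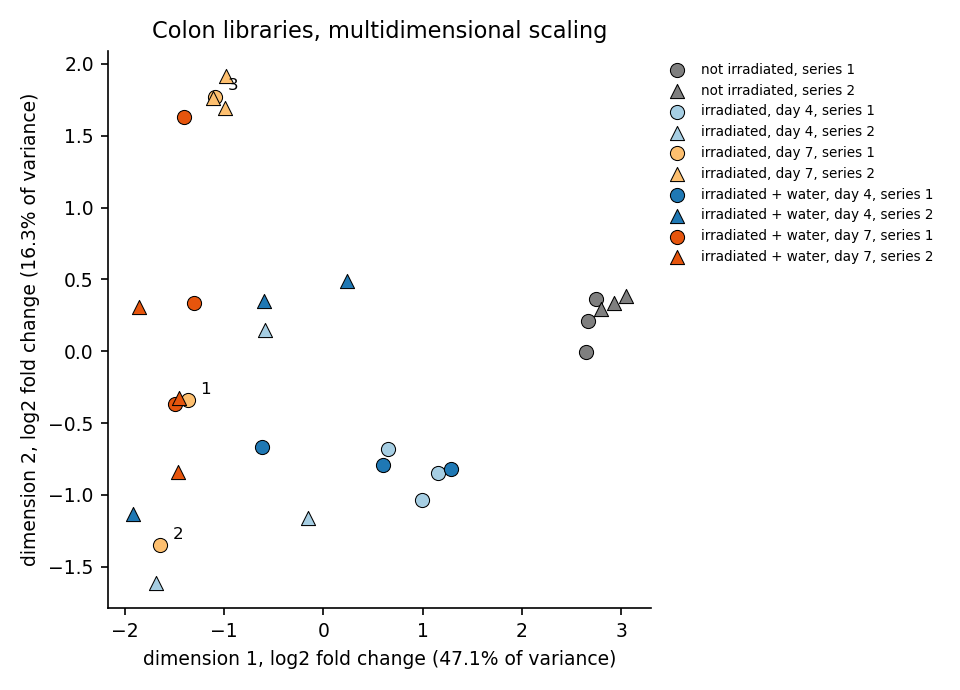
Multidimensional scaling of 30 colon libraries; the axes are the first and second dimension in log2 fold change (47.1% and 16.3% of variance), colours are groups, circles are library series 1 and triangles series 2. The non-irradiated libraries lie at the right, and replicates 1 and 2 of irradiation alone on day 7 lie below replicates 3 to 6 of that group.

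The first question was whether oral water moved the irradiated colon at all. On day 4 no gene passed the threshold of an adjusted p of 0.05 (0.0% of 13306 genes) by edgeR's quasi-likelihood test, and DESeq2 also called 0. At an unadjusted p under 0.05 there were 374 genes (2.81%), of which 183 were higher (1.38%) and 191 lower (1.44%) with the vehicle. On day 7 a single gene passed (0.00752%), Nlrx1, which was higher with the vehicle. At an unadjusted p under 0.05 there were 642 genes on day 7 (4.82%), 287 higher (2.16%) and 355 lower (2.67%). Averaged over both days 0 genes passed in edgeR, 371 had an unadjusted p under 0.05 (2.79%), and DESeq2 called 2, Nlrx1 and Ceacam4. A single gene passed for this mean in edgeR without irradiation-alone replicate 2 of day 7 (Ceacam4), or without vehicle replicate 3 or 4 of day 7 (Nlrx1). The difference between the days, tested as an interaction, gave 0 calls in edgeR and in DESeq2, with 595 genes at an unadjusted p under 0.05 (4.47%).

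The same fit separated the irradiated groups from the non-irradiated colon far more widely. Irradiation alone differed in 6242 genes on day 4 (46.9%) and 8469 on day 7 (63.6%), and the oral vehicle in 6587 (49.5%) and 8764 (65.9%). These 4 comparisons share the non-irradiated libraries. Among the 9774 genes with a mean of at least 5 CPM, the 95% interval of the vehicle difference lay within a doubling or halving (1 log2 unit either way) for 92.9% on day 4, 90.3% on day 7 and 96.2% for the mean of both days. The median half-width of the interval over all genes tested was 0.36 log2 units on either day. Over all genes tested, the shares within 1 log2 unit were 80.2%, 77.3% and 88.8% in the same order. Most genes that missed the threshold are therefore bounded, for the difference over both library series together, and are not shown to be equal. Colon libraries of 1 group differed by a median SD of 0.20 to 0.24 log2 units in the 4 irradiated groups, against 0.15 in the non-irradiated one.

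**Figure D2:**
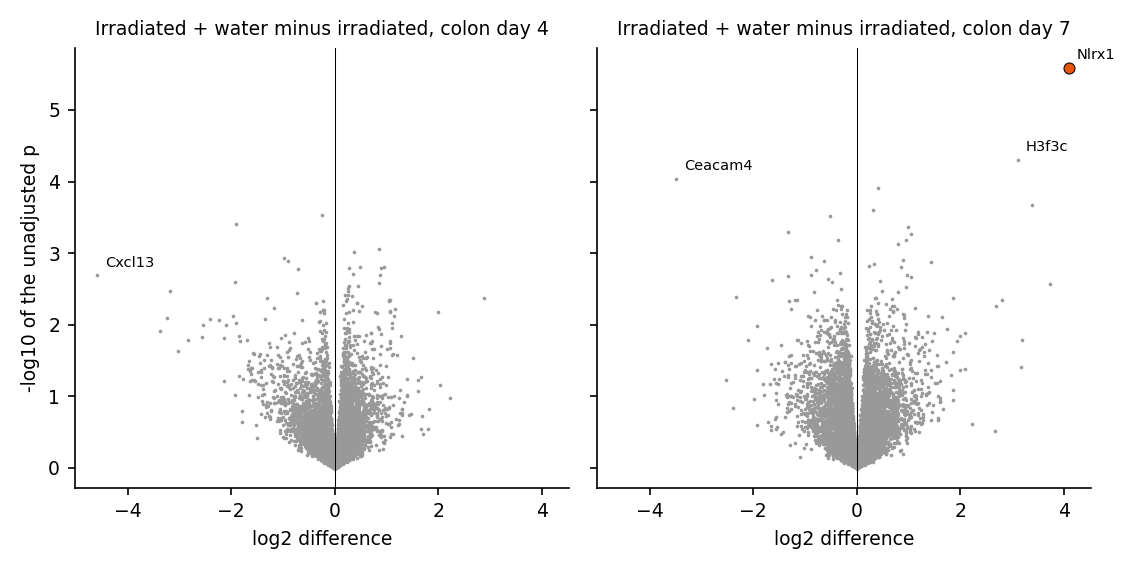
Log2 difference of oral vehicle minus irradiation alone (x) against -log10 of the unadjusted p (y) for 13306 genes in the colon, day 4 at the left and day 7 at the right; each point is a gene. Nlrx1, drawn large in the day 7 panel, is the only gene past the adjusted threshold; H3f3c, Ceacam4 and, on day 4, Cxcl13 are named and did not pass.

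Nlrx1 encodes a member of the NOD-like receptor family that is located at mitochondria and is known as a modulator of innate immune signalling. It was higher with the oral vehicle on day 7, by 4.09 ± 0.74 (SE) log2 units, or 17.05-fold, with a 95% interval of 2.60 to 5.58 and an adjusted p of 0.0342 (edgeR's quasi-likelihood test, n = 6 and 6). In the colon on day 7 the irradiated rats without further treatment had 5.39, 10.4, 10.0, 9.30, 15.2 and 12.7 CPM in replicates 1 to 6. The oral vehicle libraries had 361.5, 147.4, 12.3, 8.56, 410.8 and 79.0 CPM. Replicates 1, 2, 5 and 6 of the vehicle group lay above every library of irradiation alone, and replicates 3 and 4 lay inside its range. The difference was thus carried by 4 of 6 libraries, 2 from each library series. These are not low counts, since the 6 vehicle libraries held 6856, 3249, 250, 167, 7928 and 1734 reads of the gene.

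The jejunum gave the same division of libraries. There irradiation alone on day 7 lay between 3.69 and 6.99 CPM of Nlrx1, with a median of 5.06. The oral vehicle libraries of the jejunum had 263.6, 491.7, 4.95, 5.26, 478.9 and 274.7 CPM in replicates 1 to 6. Replicates 1, 2, 5 and 6 were high and replicates 3 and 4 low, as in the colon. Colon and jejunum libraries of a given replicate share the number in their library name, and the labels do not say whether they come from the same rat. The jejunum difference on day 7 was 5.61 ± 1.01 (SE) log2 units, with an adjusted p of 0.0303 in a fit of its own. For the mean of both days it was 3.88 ± 0.67 in the jejunum (adjusted p 0.0143) and 2.57 ± 0.50 in the colon (adjusted p 0.0843, edgeR in both). The tissue difference of the vehicle effect was called for 0 of 13741 genes in edgeR and in DESeq2, with 1084 at an unadjusted p under 0.05 (7.89%).

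Outside the day 7 vehicle group, Nlrx1 was not uniformly low. In the colon, day 4 gave 2.95 to 13.7 CPM (median 4.73) with irradiation alone and 3.64 to 21.8 CPM (median 10.1) with the vehicle. The 2 groups overlapped, and the log2 difference was 1.04 with an interval of -0.36 to 2.45. The non-irradiated colon had 1.51 to 12.8 CPM, with a median of 10.1. In the jejunum the non-irradiated libraries ranged from 4.69 to 89.1 CPM (median 34.8), and a single vehicle library on day 4 reached 101.3 CPM. High Nlrx1 levels were therefore also seen without irradiation, in the jejunum. The colon libraries of irradiated rats given the powder by mouth had 8.35, 152.2, 96.4, 508.2, 139.5 and 222.7 CPM on day 7, so that 5 of 6 lay above every library of irradiation alone. The 6 jejunum libraries of that arm had 5.26, 156.2, 61.6, 207.1, 309.3 and 223.0 CPM.

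**Figure D3:**
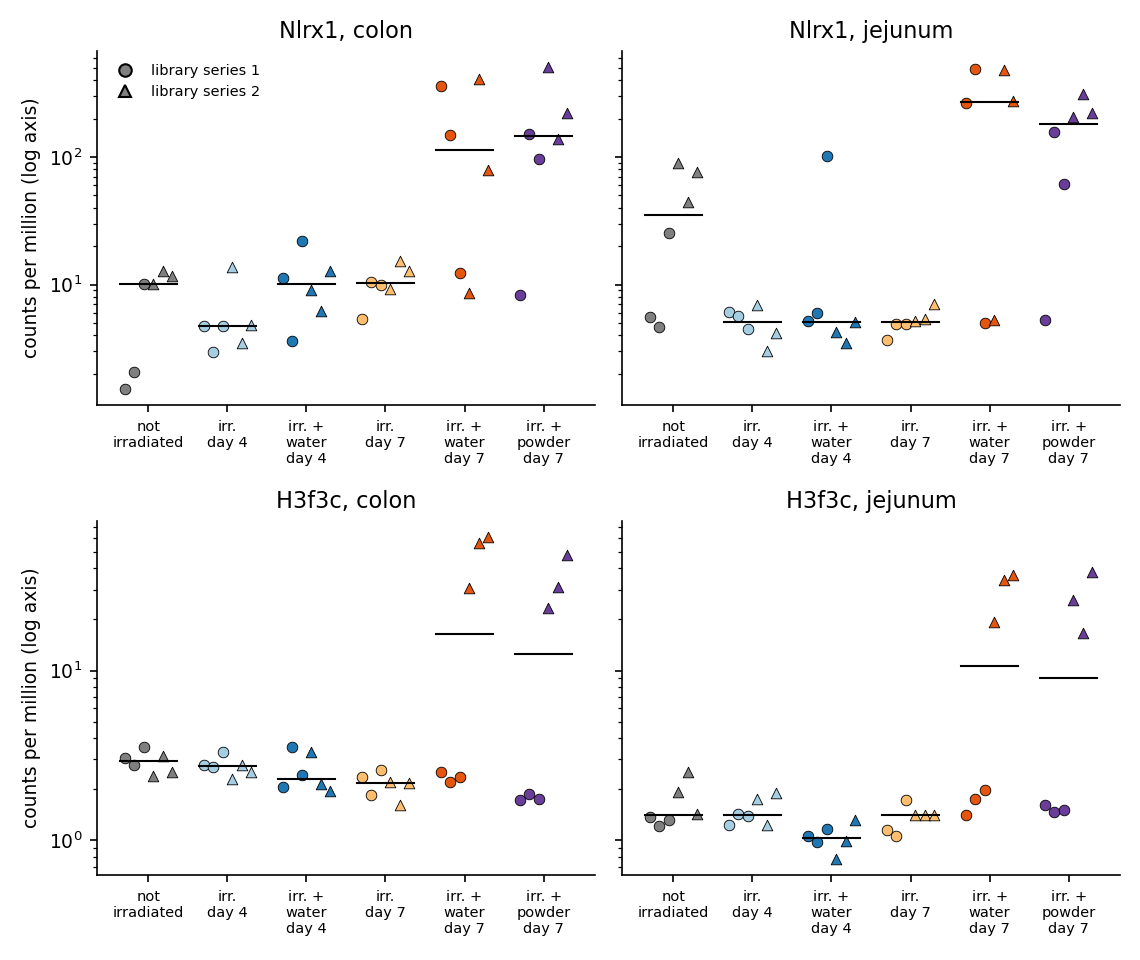
CPM (log axis) of Nlrx1 and H3f3c in each library of 6 groups, colon at the left and jejunum at the right; points of a group stand in replicate order, circles are library series 1, triangles series 2, and lines are medians. For Nlrx1, replicates 3 and 4 of the day 7 vehicle group lie with the untreated libraries in both tissues; for H3f3c, the 3 libraries of series 2 lie above the 3 of series 1 in the day 7 vehicle and powder groups.

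The Nlrx1 call depended on the fit. Its adjusted p was 0.0623 without the library series term, 0.709 when only the groups compared were fitted, 0.94 within series 1 and 0.139 within series 2. DESeq2 gave 4.31e-06. When 1 library of the day 7 comparison was left out in turn, the call was kept without vehicle replicate 3 (adjusted p 0.00716), 4 (0.00267) or 6 (0.0231). It was lost without any of the other 9, at adjusted p values of 0.0608 to 0.21. Without irradiation-alone replicate 2 the 1 gene called was Tmem181 instead. The log2 difference itself lay between 3.49 and 4.36 over these 12 fits. With both irradiation-alone replicates 1 and 2 left out, the adjusted p was 0.0316 (edgeR). The difference there was 4.09 with an SE of 0.90, against an SE of 0.74 in the main fit. Many more genes were called in that fit, as given below, and the adjustment depends on all genes. These 2 libraries were picked after their values were seen, so that value is no test of the call.

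The genes on either side of Nlrx1 in the RefSeq order of the GRCr8 assembly were read for comparison. Pdzd3, a scaffold protein of epithelial apical membranes listed there as Nherf4, lies next to it. Pdzd3 had 77.8, 37.0, 15.9, 6.51, 89.96 and 18.4 CPM in the 6 vehicle libraries of the colon on day 7, against 5.44, 1.24, 20.5, 14.8, 17.8 and 12.3 CPM with irradiation alone. Its highest values were in vehicle replicates 1, 2 and 5, which were also the 3 highest for Nlrx1. The log2 difference was 1.86, with an interval of 0.62 to 3.10 and an adjusted p of 0.879 (edgeR). Whether reads were assigned by strand is not given in the sources used here, so reads of adjacent or overlapping genes cannot be told apart. The next neighbours gave smaller differences: Abcg4 differed by -0.33, Hinfp by -0.18, Cbl by 0.08, C2cd2l by -0.28 and Dpagt1 by -0.19 log2 units, and none was called.

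The genes next in order of p on day 7 did not pass the threshold. Tmem181, a transmembrane protein gene, had 35.6 to 58.1 CPM (median 40.1) with irradiation alone and 49.7 to 59.6 CPM (median 58.2) with the vehicle, a log2 difference of 0.41 (adjusted p 0.414 in edgeR). Otub1, a deubiquitinating enzyme, had 5.86 to 6.66 CPM (median 6.34) against 3.28 to 5.18 CPM (median 4.47), so the 2 groups did not overlap, and its difference was -0.53 (adjusted p 0.575). Both differences were small, and neither passed after adjustment over all genes. Tent4b, a non-canonical poly(A) polymerase, differed by 0.31, and Nceh1, a cholesteryl ester hydrolase, by 0.79. Below zero, Mrps18a of the mitochondrial ribosome differed by -0.36, Sbspon by -0.88 and Ndrg3 by -0.79. Ifitm2, an interferon-induced membrane protein, had 28.1 to 59.5 CPM (median 52.3) against 24.6 to 42.6 CPM (median 28.5), a difference of -0.63. In the fit with 1 mean per group and series, 5 of these genes passed within library series 2 (3 libraries against 3) and none within series 1. Their log2 differences in series 2 and series 1 were 0.68 and 0.17 for Tmem181, 0.52 and 0.11 for Tent4b, 1.28 and 0.38 for Nceh1, -0.65 and -0.07 for Mrps18a, and -1.01 and -0.23 for Ifitm2. The adjusted p in series 2 was 0.00826 for Tmem181, Tent4b and Mrps18a, 0.0206 for Nceh1 and 0.0169 for Ifitm2 (edgeR), and the series difference was called for none of the 5. The number of genes called within series 2 was not stable when 1 library was left out, as given below.

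2 genes of low level stood out by the size of their difference. Thegl, named for its likeness to Theg, a gene of the testis, had 0.10 to 0.18 CPM with irradiation alone on day 7 and 0.79 to 2.90 CPM with the vehicle. The groups did not overlap, and the log2 difference was 3.38 ± 0.82 (SE) with an adjusted p of 0.546 (edgeR). In the jejunum Thegl had 0.00 to 0.12 CPM against 0.75 to 1.98 CPM, again without overlap (adjusted p 0.0965 in edgeR). On day 4, however, Thegl in the colon ranged from 0.05 to 2.48 CPM with irradiation alone and from 0.85 to 1.98 CPM with the vehicle. Ceacam4, of the carcinoembryonic antigen family, had 0.09 to 2.28 CPM (median 1.23) with irradiation alone and 0.05 to 0.18 CPM (median 0.08) with the vehicle on day 7, a difference of -3.49 ± 0.79 with an adjusted p of 0.404. Its neighbour Cd177, a surface glycoprotein of neutrophils, had 12.4 to 41.4 CPM (median 28.4) against 6.91 to 16.7 CPM (median 8.68). The difference was -1.33 (adjusted p 0.879 in edgeR). Cd177 was also present in the non-irradiated colon, at 5.35 to 18.7 CPM. Summed neutrophil markers had medians of 34.8 CPM with irradiation alone and 57.3 CPM with the vehicle on day 7. Their ranges overlapped, at 28.7 to 75.9 CPM and 35.6 to 84.9 CPM. The median log2 difference of the 9 neutrophil genes tested was 0.10 on day 7 and -0.39 on day 4. The day 7 median was -0.24 without vehicle replicate 4, 0.50 without irradiation-alone replicate 2 and 0.82 without replicates 1 and 2.

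On day 4 the gene of smallest p among those of at least 5 CPM was Selenok, a selenoprotein of the endoplasmic reticulum. It had 51.2 to 58.5 CPM (median 55.5) with irradiation alone and 41.1 to 52.98 CPM (median 45.2) with the vehicle, a log2 difference of -0.25. Ercc2, a helicase of nucleotide excision repair, had 8.86 to 11.4 CPM (median 10.7) against 11.5 to 14.4 CPM (median 13.8), without overlap, a difference of 0.37. Both had an adjusted p of 1.0 (edgeR). Cxcl13, the chemokine that draws B cells into lymphoid follicles, had the widest contrast: 0.06 to 28.8 CPM (median 16.5) with irradiation alone and 0 to 3.59 CPM (median 0.05) with the vehicle. The groups overlapped and the interval was wide, -7.40 to -1.79. The other genes of this order were Ifit1bl at 0.85, Per3 at 0.85, Atf7 at 0.35 and Zcchc2 at 0.28, and, below zero, Alkbh6 at -0.98, Atf7ip2 at -0.90 and Enpp1 at -0.71.

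For the mean of both days the same order named Mx1 at 0.69, Ifit1bl at 0.57, Tmed1 at 0.38 and Pdzd3 at 1.44 above zero. Below zero it named Cd177 at -0.96, Sbspon at -0.62, Atf7ip2 at -0.59, Ifitm2 at -0.44 and Rhbg, an ammonium transporter, at -0.32. All of these had an adjusted p of 0.998 (edgeR). Tmed1, a cargo receptor of the early secretory pathway, had 10.2 to 17.6 CPM (median 16.8) with irradiation alone on day 7 and 19.9 to 25.2 CPM (median 21.6) with the vehicle, without overlap.

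The gene groups are described by how many of their members lay above zero and by their median, beside the same for all genes tested. Over all genes 6751 of 13306 lay above zero on day 4 (median 0.003) and 6327 on day 7 (median -0.01). No member of any of the 39 lists was called on day 4, on day 7 or for the mean of both days. Members of a list are not independent of each other, and the libraries are the same for all of them.

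The radiation response itself was present in both arms. Cdkn1a, the p53-induced inhibitor of the cell cycle, had 134 to 192 CPM (median 152) in the non-irradiated colon. On day 4 it had 316 to 534 CPM (median 374) with irradiation alone and 352 to 601 CPM (median 421) with the vehicle, a log2 difference of 0.14 and an interval of -0.22 to 0.50. On day 7 it had 164 to 377 CPM (median 201) and 179 to 318 CPM (median 261), a difference of 0.20 and an interval of -0.16 to 0.56. The groups overlapped on both days. Of the 28 p53 targets tested, 21 were above zero on day 4 (median 0.05) and 22 on day 7 (median 0.13), and 0 had an unadjusted p under 0.05 on either day. Leaving out irradiation-alone replicates 1 and 2 gave a day 7 median of 0.23. Against the non-irradiated colon, 21 of these 28 rose and 3 fell with irradiation alone on day 4 (edgeR, 24.6% and 22.3% of all genes), and the list's median was 1.02. Phlda3, a p53-induced repressor of Akt signalling, lay between 73.5 and 156.3 CPM with irradiation alone and between 71.6 and 131.4 CPM with the vehicle on day 4.

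Proliferation genes differed by little, with point estimates above zero on day 4 and below it on day 7. All 23 mitosis genes tested were above zero on day 4, with a median of 0.16, and 2 of 23 on day 7, with a median of -0.10. Of 26 DNA replication genes, 23 were above zero on day 4 (median 0.08) and 7 on day 7 (median -0.04). That day 7 median was 0.02 without irradiation-alone replicates 1 and 2, 0.03 without vehicle replicate 1 and -0.13 without irradiation-alone replicate 3, and the day 4 median was -0.00047 without vehicle replicate 4. None of the 49 had an unadjusted p under 0.05 on either day. Mki67, the marker of cycling cells, had 37.9 to 69.8 CPM (median 57.2) and, with the vehicle, 41.9 to 96.0 CPM (median 69.4) on day 4, a difference of 0.31 with an interval of -0.17 to 0.78. On day 7 Mki67 had 144.9 to 234.0 CPM (median 197.5) against 148.1 to 208.7 CPM (median 183.1), a difference of -0.11. When each library was left out in turn, the median of the mitosis list lay between 0.06 and 0.24 on day 4 and between -0.18 and -0.03 on day 7.

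Among 16 crypt stem cell genes and Wnt targets, 9 were above zero on day 4 (median 0.01) and 15 on day 7 (median 0.19). The day 4 median lay between -0.04 without vehicle replicate 4 and 0.20 without irradiation-alone replicate 4. The day 7 median was 0.11 without vehicle replicate 2, 0.38 without irradiation-alone replicate 2 and 0.50 without replicates 1 and 2. Lgr5, the receptor that marks crypt base stem cells, was low in all groups. It had 0.28 to 3.58 CPM (median 0.97) with irradiation alone on day 7 and 1.21 to 3.65 CPM (median 2.99) with the vehicle, a difference of 0.81 with an interval of -0.14 to 1.77. Its day 4 difference was -0.03. Ascl2, a transcription factor of stem cells, differed by 0.68 on day 7 (interval -0.27 to 1.62). Axin2, a feedback target of Wnt signalling, differed by 0.41 on day 4 (interval -0.09 to 0.91). Olfm4, a secreted glycoprotein of crypt cells, differed by -1.28 on day 4 (interval -2.48 to -0.08), with 1.10 to 33.8 CPM (median 2.76) against 1.30 to 8.89 CPM (median 2.01). On day 7 Olfm4 was at a median of 20.2 CPM with irradiation alone and 19.2 CPM with the vehicle.

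The differentiated cell types overlapped between the arms. Of 28 genes of colonocytes and absorption, 17 were above zero on day 4 (median 0.14) and 10 on day 7 (median -0.20). Single libraries turned both medians, to -0.06 without vehicle replicate 4 on day 4 and to 0.18 without irradiation-alone replicate 3 on day 7. Without irradiation-alone replicates 1 and 2 the day 7 median was -0.43. Slc26a3, the chloride and bicarbonate exchanger of surface colonocytes, had 122.6 to 2674 CPM (median 1161) with irradiation alone on day 7 and 141.2 to 1589 CPM (median 636.6) with the vehicle. Its differences were -0.11 on day 4 and -0.69 on day 7, with an interval of -2.04 to 0.65. Such a spread within a group left differences of 2-fold unresolved for this gene. Aqp8, a water channel, had 1.15 to 215.3 CPM and 0.55 to 36.3 CPM on day 7, with an interval of -5.68 to 0.88.

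Of 17 goblet cell genes, 8 were above zero on each day (medians -0.05 and -0.10). The medians were 0.14 without irradiation-alone replicate 4 on day 4, and -0.01 without irradiation-alone replicate 2 or -0.04 without both on day 7. Muc2, the main mucin of the colon, is entered in the table as AABR07006030.1. It had 1639 to 15520 CPM (median 5686) and 3956 to 6809 CPM (median 5372) on day 4, a difference of -0.26, and 1052 to 2184 CPM (median 1578) and 1013 to 1845 CPM (median 1361) on day 7, a difference of -0.21. Fcgbp, a mucus protein that binds Muc2, had 552.2 to 834.0 CPM (median 705.5) and 452.4 to 1388 CPM (median 1137) on day 7, a difference of 0.59 with an interval of 0.03 to 1.16. Tuft cell genes had 12 of 13 above zero on day 4 (median 0.44) and 4 of 13 on day 7 (median -0.23). Enteroendocrine genes had 2 of 17 above zero on day 4 (median -0.19) and 5 of 17 on day 7 (median -0.24). The day 7 median was -0.04 without irradiation-alone replicate 2, -0.03 without replicates 1 and 2, and -0.51 without vehicle replicate 2. The day 4 median lay between -0.32 without irradiation-alone replicate 6 and -0.08 without replicate 4. The tuft cell median was 0.85 without irradiation-alone replicate 4 and 0.22 without vehicle replicate 4 on day 4. On day 7 it was -0.41 without irradiation-alone replicate 5, -0.04 without replicate 2 and -0.09 without replicates 1 and 2. Among the enteroendocrine genes, Scgn, a calcium sensor, differed by -0.94 on day 7 (interval -1.79 to -0.10). Insm1, a transcription factor of enteroendocrine cells, differed by -0.73 (interval -1.31 to -0.14).

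Genes of the interferon list lay mostly above zero on both days. On day 4 there were 28 of 30 above zero with a median of 0.25, and on day 7 there were 22 of 30 with a median of 0.22. For the mean of both days it was 27 of 30, with a median of 0.23. At an unadjusted p under 0.05, 3 were higher on day 4 (Mx1, Ifit2 and Ifit3), where 1.38% of all genes were, and 4 on day 7 (Mx1, Herc6, Parp14 and Igtp), where 2.16% of all genes were. No member of the list was lower at that p on either day. Ifitm2, given above at -0.63 on day 7, is also interferon-induced but is not on the list. Mx1, an antiviral GTPase, had 6.28 to 13.2 CPM (median 10.1) with irradiation alone and 9.77 to 28.8 CPM (median 12.6) with the vehicle on day 4. On day 7 Mx1 had 6.35 to 13.0 CPM (median 11.5) and 7.77 to 22.9 CPM (median 18.5). Its difference was 0.70 on day 4 and 0.67 on day 7, and the groups overlapped on both. Ifit2, which binds viral RNA, differed by 1.14 on day 4 (interval 0.32 to 1.95), with 13.8 to 39.3 CPM (median 20.5) against 18.3 to 106.2 CPM (median 47.8). Leaving out each library in turn moved the list's median between 0.18 and 0.31 on day 4 and between 0.16 and 0.33 on day 7. It was 0.38 on day 7 without both irradiation-alone replicates 1 and 2. Oas1a, a sensor of double-stranded RNA, lay the other way on day 7, at -0.68 (interval -1.71 to 0.34).

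Inflammatory genes were split. Of 22 cytokines and enzymes, 11 were above zero on day 4 (median -0.06) and 13 on day 7 (median 0.21). The day 4 median was -0.41 without vehicle replicate 5 and 0.35 without irradiation-alone replicate 6. The day 7 median was 0.05 without vehicle replicate 1, 0.37 without irradiation-alone replicate 2 and 0.79 without replicates 1 and 2. Il1b, a cytokine of activated myeloid cells, had 2.54 to 20.9 CPM (median 4.16) and 0.81 to 12.0 CPM (median 2.12) on day 4, a difference of -0.84, and -0.19 on day 7. Reg3g, an antimicrobial lectin of the epithelium, ranged from 7.61 to 1760 CPM with irradiation alone on day 4 and from 19.6 to 806.3 CPM with the vehicle. Its intervals, -3.15 to 1.39 on day 4 and -1.84 to 2.69 on day 7, spanned differences of several-fold in both directions. Lcn2, an iron-chelating protein of inflamed epithelium, had 9.75 to 21.7 CPM (median 13.8) with irradiation alone and 24.5 to 43.0 CPM (median 30.1) with the vehicle on day 7, without overlap. Its difference was 1.12 (interval 0.19 to 2.04), and it did not pass the adjusted threshold.

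Markers of cells other than epithelium lay mostly below zero on day 4. Of 15 B and plasma cell genes 1 was above zero (median -1.10) and 6 had an unadjusted p under 0.05, all lower with the vehicle (1.44% of all genes were lower at that p), among them Cd79a, Jchain, Xbp1, Cr2 and Irf4. Jchain, which joins the units of secreted IgA and IgM, had 1.22 to 5.94 CPM (median 3.22) with irradiation alone and 0.46 to 1.58 CPM (median 0.66) with the vehicle. The summed level of the whole marker list overlapped, at 703.2 to 959.0 CPM and 641.4 to 987.4 CPM. It includes Xbp1, which epithelium also expresses and which alone had 125.5 to 206.6 CPM and 114.1 to 150.7 CPM. The sum follows its most abundant members, and a gene of low level such as Jchain adds little to it. The list's day 4 median was -1.53 without vehicle replicate 5 and -0.80 without irradiation-alone replicate 1. Cxcl13, given above, was low in the vehicle arm on that day. On day 7 the list was balanced, with 8 of 15 above zero and a median of 0.05, which was -0.15 without vehicle replicate 4 and 0.24 without irradiation-alone replicates 1 and 2. MHC class II genes had 0 of 9 above zero on day 4 (median -0.41) and 2 of 9 on day 7 (median -0.39). T cell genes had 2 of 16 above zero on day 4 (median -0.17) and 8 of 16 on day 7 (median 0.01). Macrophage genes had 4 of 17 and 5 of 17 above zero (medians -0.29 and -0.15). Their day 4 median was -0.64 without vehicle replicate 5 and -0.0050 without irradiation-alone replicate 6. On day 7 it turned to 0.29 without irradiation-alone replicate 2 and to 0.63 without replicates 1 and 2. The MHC class II median of day 7 was -0.17 without irradiation-alone replicate 2, -0.11 without both and -0.66 without vehicle replicate 4. On day 4 it was -0.69 without vehicle replicate 5. The T cell median was -0.06 without irradiation-alone replicate 1 on day 4, and on day 7 -0.25 without vehicle replicate 4 and -0.18 without irradiation-alone replicates 1 and 2. The part of these cells in any other result was not tested.

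Smooth muscle genes, in contrast, had 13 of 13 above zero on day 4 (median 0.56) and 9 of 13 on day 7 (median 0.24). The day 4 median was 0.20 without vehicle replicate 1. The day 7 median turned to -0.38 without vehicle replicate 5, and was 0.91 without irradiation-alone replicates 1 and 2. Myh11, the myosin heavy chain of smooth muscle, differed by 0.89 on day 4 (interval 0.15 to 1.64). Actg2, an actin of enteric smooth muscle, had 1.88 to 14.3 CPM (median 4.12) and 0.48 to 63.6 CPM (median 7.76) on day 4. The summed smooth muscle level was 171.7 to 281.2 CPM (median 241.8) with irradiation alone and 168.0 to 568.3 CPM (median 308.4) with the vehicle on day 4, and 244.3 to 285.6 CPM against 220.9 to 282.6 CPM on day 7. The range on day 4 was wider with the vehicle than with irradiation alone. In series 1 the day 4 vehicle libraries had 568.3, 330.0 and 323.2 CPM, against 281.2, 245.5 and 238.2 CPM with irradiation alone. In series 2 the values were 168.0, 293.7 and 189.5 CPM against 171.7, 236.0 and 255.0 CPM.

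Handling and feeding could show in hormone and clock genes. Of 17 circadian clock genes 12 were above zero on day 4 (median 0.19), and 4 had an unadjusted p under 0.05, all higher: Per1 at 1.04, Per3 at 0.85, Per2 at 0.53 and Tef at 0.53. Over all genes 1.38% were higher at that p. The list's day 4 median lay between 0.11 without vehicle replicate 4 and 0.44 without irradiation-alone replicate 4. Per1, which is driven both by the clock and by glucocorticoids, had 2.84 to 23.7 CPM (median 8.86) with irradiation alone and 4.51 to 38.0 CPM (median 19.5) with the vehicle. On day 7 12 of 17 were above zero, with a median of 0.05 and 0 at an unadjusted p under 0.05. That median was -0.0092 without vehicle replicate 3 and -0.02 without irradiation-alone replicates 1 and 2. The labels give no hour of tissue collection. Of 13 genes of the glucocorticoid response 9 were above zero on day 4 (median 0.11) and 7 on day 7 (median 0.09). They did not move one way: Fkbp5, a chaperone partner of the glucocorticoid receptor, differed by -0.49 on day 4 (interval -0.93 to -0.06) and by 0.09 on day 7, while Mt2A, a metallothionein, differed by 1.20 on day 4 (interval 0.15 to 2.25).

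Genes of the respiratory chain and of lipid synthesis lay below zero on day 7. All 18 nuclear-encoded genes of the respiratory chain were lower with the vehicle in point estimate, with a median of -0.40, and 6 had an unadjusted p under 0.05, where 2.67% of all genes were lower: Sdha, Uqcrc1, Uqcrc2, Atp5f1a, Atp5f1b and Atp5mc1. On day 4 4 of 18 were above zero, with a median of -0.04. Atp5f1b, a catalytic subunit of ATP synthase, had 1422 to 3429 CPM (median 3305) with irradiation alone on day 7 and 1352 to 2987 CPM (median 2060) with the vehicle, a difference of -0.49 (interval -0.97 to -0.01). Of 29 genes of cholesterol and fatty acid synthesis 2 were above zero on day 7 (median -0.28) and 23 on day 4 (median 0.04). Mvk, mevalonate kinase, differed by -0.41 on day 7 (interval -0.72 to -0.11), and Acacb, an acetyl-CoA carboxylase, by 0.69 (interval 0.21 to 1.18). Pdk4, a kinase that restrains glucose oxidation in fasting, differed by -0.65 on day 4 (interval -1.64 to 0.35) and by 1.20 on day 7 (interval 0.18 to 2.23). Of 26 genes of fatty acid oxidation and ketogenesis 7 were above zero on day 4 and 11 on day 7 (medians -0.09 and -0.04). The latter was 0.04 without vehicle replicate 6 and -0.19 without irradiation-alone replicates 1 and 2. On day 4 the respiratory chain median turned to 0.04 without vehicle replicate 5, and that of cholesterol and fatty acid synthesis to -0.0076 without vehicle replicate 3.

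**Figure D4:**
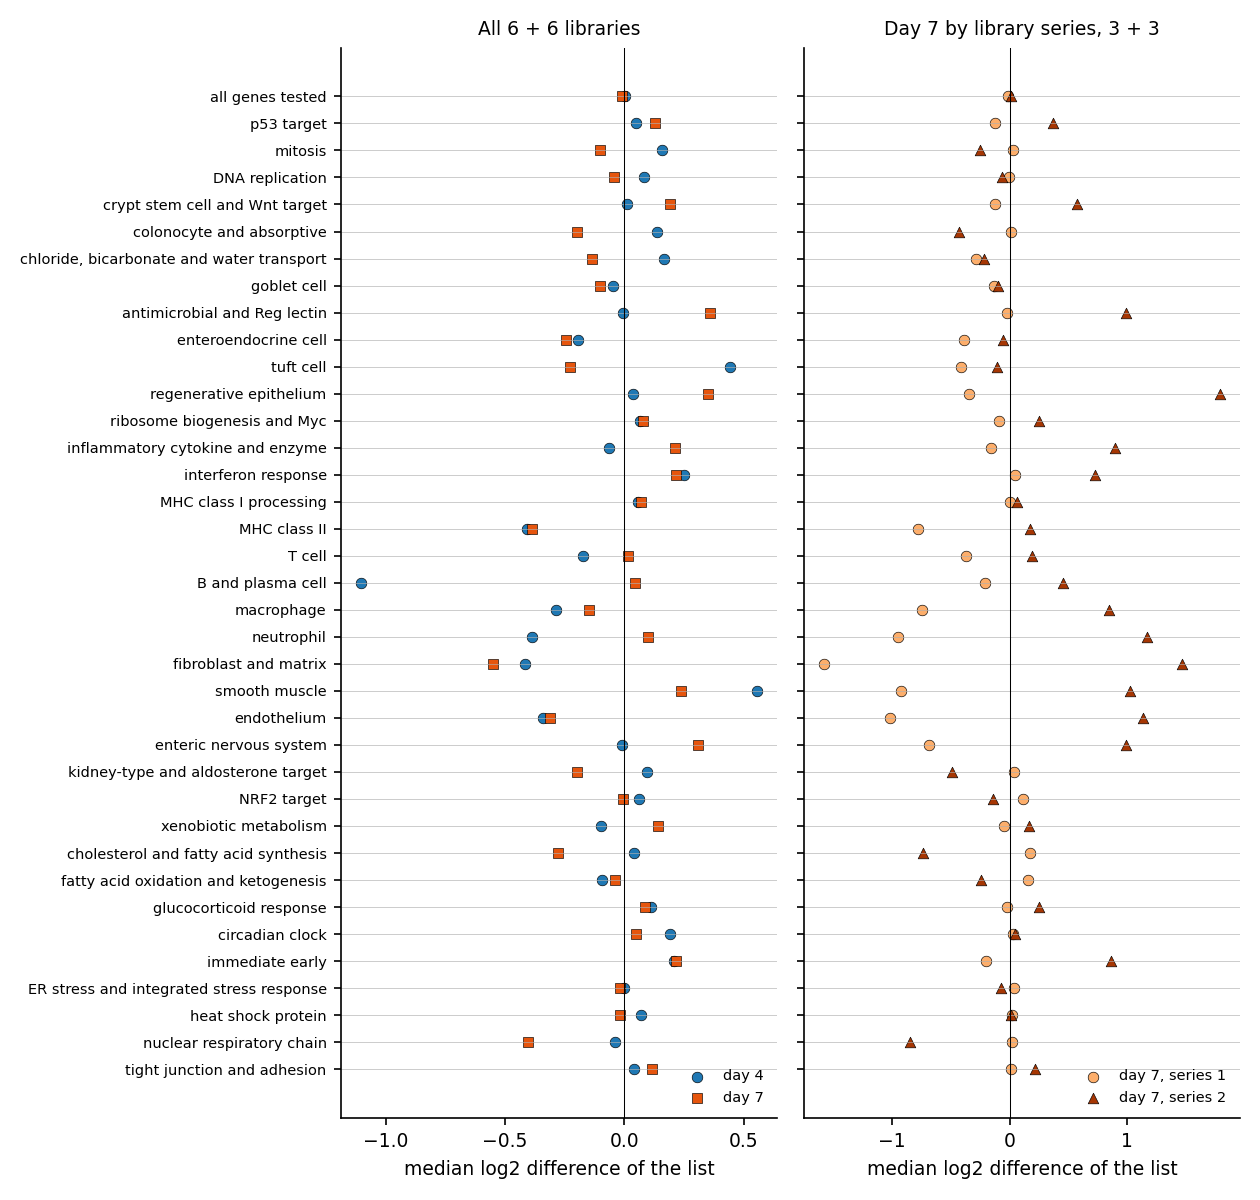
Median log2 difference, oral vehicle minus irradiation alone, of gene lists (the 3 with the fewest genes tested left out) and of all genes tested in the colon; at the left day 4 (circles) and day 7 (squares) from 6 and 6 libraries, at the right day 7 within library series 1 (circles) and series 2 (triangles) from 3 and 3 libraries. The medians of all genes lie at zero, no list member was called in the left panel, and at the right the fibroblast list lies at -1.58 in series 1 and 1.47 in series 2.

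The day 7 medians hid a division by library series. The difference between the 2 series in the vehicle effect was tested as an interaction. On day 4 it was called for 0 genes in edgeR and in DESeq2, with 194 at an unadjusted p under 0.05 (1.46%). On day 7 it was called for 2 genes (0.015%), with 2407 genes (18.1%) at an unadjusted p under 0.05. DESeq2 called 98 genes on day 7. Leaving out each library in turn moved the day 7 count between 1 and 162. It was 162 without irradiation-alone replicate 3 and 6 without vehicle replicate 2. H3f3c, 1 of the 2 genes, was called in all 12 of these fits, while Rimklb lost its call without irradiation-alone replicate 2 or 5 or vehicle replicate 1, 3 or 6.

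H3f3c was the first of the 2. RefSeq lists it as a pseudogene of the H3.3 histone family, whose near-identical copies can share reads, so the level of this copy is uncertain. In the colon on day 7 it had 2.53, 2.22 and 2.37 CPM in the vehicle libraries of series 1 and 30.5, 56.5 and 61.3 CPM in those of series 2, while irradiation alone had 1.61 to 2.62 CPM in all 6. The difference between the series was 4.57 ± 0.37 (SE) log2 units, with an interval of 3.82 to 5.31 and an adjusted p of 1.71e-09 (edgeR). The jejunum had 1.41, 1.75 and 1.98 CPM in vehicle libraries of series 1 and 19.4, 34.2 and 36.7 CPM in series 2 on day 7. The powder arm divided in the same way in the colon, with 1.73, 1.87 and 1.75 CPM in series 1 and 23.3, 30.9 and 47.9 CPM in series 2. Over the 2 series together the vehicle difference of H3f3c on day 7 was 3.11 ± 0.68, with an adjusted p of 0.329 (edgeR).

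The second gene was Rimklb, an enzyme that couples glutamate to N-acetylaspartate or citrate. With irradiation alone on day 7 it had 6.65, 11.6 and 2.39 CPM in series 1 and 0.60, 0.45 and 0.82 CPM in series 2. With the vehicle it had 3.22, 4.58 and 2.57 CPM in series 1 and 6.61, 5.54 and 10.9 CPM in series 2. Here both arms differed between the series, in opposite directions. The difference between the series was 4.603 ± 0.78 (SE), with an interval of 3.02 to 6.18 and an adjusted p of 0.00969 (edgeR). In the jejunum Rimklb stayed under 0.40 CPM in both arms on day 7.

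Within series 1 (3 libraries against 3) edgeR called 0 genes on day 7, with 269 at an unadjusted p under 0.05 (2.02%). Within series 2 it called 264 genes (1.98%), 150 higher (1.13%) and 114 lower (0.857%), with 3348 at an unadjusted p under 0.05 (25.2%), of which 13.6% of all genes were higher and 11.5% lower. That count was not stable when 1 library was left out, which also makes a group of 3 smaller. The count fell to 2 without irradiation-alone replicate 4 and to 1 without replicate 5 or 6. It fell to 62 without vehicle replicate 4 and to 11 without vehicle replicate 6. Refitted on the libraries of series 2 alone it was 2, H3f3c and Rimklb. On day 4 edgeR called 0 genes within either series, with 352 genes at an unadjusted p under 0.05 in series 1 (2.65%) and 290 in series 2 (2.18%), and DESeq2 called 4 in series 1.

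The lists moved apart between the series on day 7. Fibroblast and matrix genes had a median of -1.58 in series 1 (0 of 20 above zero) and 1.47 in series 2 (20 of 20). Endothelial genes had medians of -1.01 and 1.14, and macrophage genes of -0.75 and 0.85. Regenerative epithelium genes had medians of -0.34 and 1.79, with 16 of 23 at an unadjusted p under 0.05 and higher in series 2. Respiratory chain genes were at 0.02 and -0.84, with 16 of 18 lower at that p in series 2, and cholesterol and fatty acid synthesis genes at 0.17 and -0.74, with 22 of 29. p53 targets were at -0.12 and 0.37. Over all genes the medians were -0.012 in series 1 and 0.014 in series 2.

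The levels by library show which samples set these values. Fibroblast and matrix genes summed to 592.9, 1018, 145.7, 184.2, 146.0 and 154.5 CPM in replicates 1 to 6 of irradiation alone on day 7. With the vehicle they summed to 168.7, 381.1, 285.8, 308.4, 395.9 and 459.1 CPM. Replicates 1 and 2 of irradiation alone were the 2 highest of the 12 libraries, and replicates 3 to 6 of that group were, with vehicle replicate 1, the 5 lowest. The list's median difference over both series was -0.55, although the median of the summed levels was higher with the vehicle, 344.7 against 169.3 CPM. The respiratory chain summed to 9166, 6120, 11050, 11790, 12000 and 11910 CPM with irradiation alone and to 10640, 7613, 8786, 6851, 7935 and 5888 CPM with the vehicle. The libraries with most stromal RNA had the least of the respiratory chain within irradiation alone. Cholesterol and fatty acid synthesis genes summed to 6409, 4337, 7502, 8325, 8973 and 8588 CPM against 7894, 5785, 6857, 5744, 6741 and 4270 CPM.

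**Figure D5:**
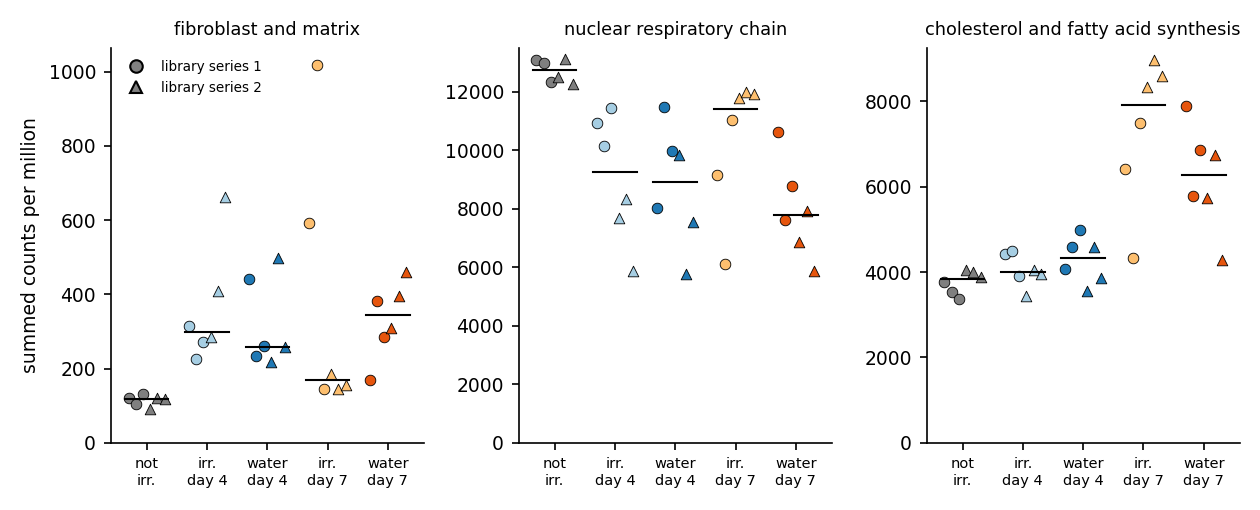
Summed CPM of 3 gene lists in each colon library of 5 groups; points of a group stand in replicate order, circles are library series 1, triangles series 2, and lines are medians. On day 7, irradiation-alone replicates 1 and 2 hold the most fibroblast and matrix RNA (592.9 and 1018) and less respiratory chain RNA than replicates 3 to 6.

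Leaving out irradiation-alone replicate 2 alone moved the day 7 median of the fibroblast list from -0.55 to 0.17 and that of the regenerative list from 0.35 to 1.01. Without both replicates 1 and 2 the medians were 1.32 for fibroblast and matrix, 1.61 for regenerative epithelium, -0.66 for the respiratory chain and -0.55 for cholesterol and fatty acid synthesis. edgeR then called 204 genes on day 7. These 2 libraries were picked after their values were seen, and they differ along the direction compared, so that count is a description and no test. The labels give nothing that sets these 2 libraries apart from the third library of series 1, and whether series and the state of the tissue are linked was not tested.

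Of all counts on day 4, genes encoded by the mitochondrial genome took 8.4% ± 1.88 (SD, n = 6) with the vehicle and 9.16% ± 1.03 (SD, n = 6) with irradiation alone. On day 7 the shares were 4.29% ± 0.949 and 3.95% ± 0.608. An exact two-sided permutation test within library series gave p = 0.38 on day 4 and p = 0.455 on day 7, over 400 arrangements whose smallest possible p is 0.005. The difference in this share was smaller than the spread between libraries on both days, also on day 7, when the nuclear-encoded respiratory chain genes lay below zero.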

How the data were processed

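Raw counts per gene were used as the authors deposited them, in the table that holds the compound Kushen powder arm and its controls. Per the submitters' processing notes, reads were mapped with STAR 2.7.10a to mRatBN7.2; for the read counter, its annotation and its use of strand, the sources used here give nothing. Per the labels, the libraries were sequenced as paired ends on a DNBSEQ-G400. Every library column was matched to a label.

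The 42 colon libraries of the table were fitted together in edgeR 4.0.16 (R 4.3.3, limma 3.58.1), with TMM factors, filterByExpr and library series as a term, and tested with glmQLFTest. p-values were adjusted by Benjamini and Hochberg over all genes tested, and genes with an adjusted p under 0.05 were called. Intervals are 95% intervals, CPM are on TMM-scaled library sizes, and DESeq2 1.42.0 was the other tool. The fit was also run on simulated counts, drawn from a common mean per gene with differences planted in the day 4 vehicle group. They held no series effect and no libraries that stood apart, so they do not speak to the stability of the calls. The differences within each library series were added after seeing the data. The mitochondrial share used 13 genes. Of 60 library pairs within colon groups 0 held identical counts, and the lowest chi-square per degree of freedom was 11.7. Because the labels do not name the animals, p-values measure the spread between these libraries, which may in part be technical.

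Named genes are those called, filled up to 5 per direction with the smallest p among genes that average 5 CPM or more, and a fixed panel of genes. 1 gene of the panel, 1 colon marker and 1 list member are not reported here by name. Other genes, among them Thegl, Ceacam4, Lcn2, the neighbours of Nlrx1 and the examples from the lists, were named after their values were seen. The comparison and the 39 lists (776 members, 753 different genes, of which 38 had no entry and 4 were found under an older symbol) were chosen with earlier results of these data known. A second count table of the series, of the injected arm, was not used here. Alternatives were another scaling, no filter on low counts, no series term, a replicate block, each series alone, the groups compared alone, the mitochondrial share as a covariate, DESeq2, and each library left out.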

Additional observations from a re-analysis of the deposited data

Results flagged for a closer look

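Among 140 sets of 6 colon libraries, each of a named gene in a group, 12 held a library far from the other 5, where chance flags about 1 in 20 sets. In irradiation alone on day 4 the highest library stood apart for Nlrx1 (13.7 CPM in replicate 4, the next at 4.86), Tmem181 (72.1 CPM in replicate 4, the next at 61.8) and Il1b (20.9 CPM in replicate 6, the next at 5.24), and the lowest for Ndrg3 (3.28 CPM in replicate 6, the next at 7.26). With the vehicle on day 4 the lowest library stood apart for Ercc2 (11.5 CPM in replicate 2, the next at 13.5), and in replicate 5 for Sbspon (9.96 CPM, the next at 22.6), Ndrg3 (5.04 CPM, the next at 7.30) and Slc26a3 (335.3 CPM, the next at 1162). Olfm4 was highest in replicate 6 of that group, at 8.89 CPM, with the next at 2.69 CPM. On day 7 Tmed1 was lowest in irradiation-alone replicate 3 (10.2 CPM, the next at 15.1), Cdkn1a highest in irradiation-alone replicate 2 (376.6 CPM, the next at 218.9), and Zcchc2 highest in vehicle replicate 3 (24.9 CPM, the next at 22.5).

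The vehicle effect on day 7 differed between the library series, by the interaction test, for Rimklb (4.603 log2 units) and H3f3c (4.57).

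Libraries outside the main comparison also stood above irradiation alone on day 7. In the colon of the powder arm the median was 145.9 CPM for Nlrx1, against 10.2 CPM, and 12.6 CPM for H3f3c, against 2.18 CPM. In the jejunum with the vehicle it was 269.1 CPM for Nlrx1, against 5.06 CPM, and 10.7 CPM for H3f3c, against 1.41 CPM.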

How the results depend on the processing

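Counts of called genes moved with the choice of fit. On day 7 the count of 1 became 0 without the library series term, 2 with DESeq2 or with series 2 only, and 204 with irradiation-alone replicates 1 and 2 left out, 2 libraries chosen after their values were seen. The mean of both days gave 2 with DESeq2, 4 with series 1 only and 1 with series 2 only, in place of 0. Day 4 gave 2 and the day difference 1 with series 1 only and series 2 only, respectively. The day 7 series difference gave 98 with DESeq2 and 1 with those 2 libraries left out, in place of 2. Within series 2 on day 7 the count of 264 became 1017 with DESeq2, 126 without the low-count filter and 2 from series 2 only. Within series 1 it became 4 with DESeq2 and 2 from series 1 only on day 4, and 1 from series 1 only on day 7, in place of 0. Leaving out each library in turn gave 0 to 1 on day 7 and for the mean of both days, 1 to 162 for the day 7 series difference and 1 to 283 within series 2 on day 7. The cause was not tested.

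With the replicate number as a block, 0 genes were called on day 4, on day 7, for the mean of both days, for the day difference and for the tissue difference; Nlrx1 on day 7 had an adjusted p of 0.148 there. Same-numbered libraries correlated at -0.682 to 0.864, with 4 of 12 pairs over 0.1. No consistent pairing by number was seen, and so few correlations cannot exclude one.

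Of 640 values of named genes under an alternative, 610 kept their sign and side of the threshold, 7 no longer passed, 4 came to pass and 19 changed sign. None of these 19 was called in either fit. With series 1 only, the sign changed for Muc2 (0.023) and Reg3g (0.69) on day 4, for Cdkn1a (-0.19), Lgr5 (-0.22), Mki67 (0.090) and Reg3g (-0.70) on day 7, and for Lgr5 (-0.12) for the mean of both days. With series 2 only, it changed for Slc26a3 (0.17) on day 4, and Il1b (0.54) and Fkbp5 (-0.0064) on day 7. With each library left out in turn, the range crossed zero on day 4 for Lgr5 (-0.24 to 0.28), Olfm4 (-1.90 to 0.21), Muc2 (-0.46 to 0.14) and Slc26a3 (-0.35 to 0.17), on day 7 for Olfm4 (-0.30 to 0.10) and Il1b (-0.35 to 0.060), and for the mean of both days for Olfm4 (-1.04 to 0.021) and Reg3g (-0.62 to 0.23), where Reg3g was at 0.22 with the replicate block. Values under about 1 CPM rest on few reads at these depths.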
